A study of Mus musculus with 26 samples.

Results

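The Dppa genes (developmental pluripotency associated) Dppa2, Dppa3, Dppa4 and Dppa5a were followed through RNA and 2 histone marks in mouse embryonic stem (ES) cells, embryonic fibroblasts (MEFs) and induced pluripotent stem (iPS) cells. They were taken by gene name from every array of the series. All 4 genes had an RNA value, among 17344 genes tested on the expression arrays. On the promoter arrays, Dppa3 and Dppa4 were among the 15119 genes with a single array start. Dppa5a, written there as Dppa5, had promoter-labelled probes in several places, and Dppa2 had none.

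The series asked how alike iPS cells and ES cells are in these marks and in expression, with MEFs as the differentiated cell type. RNA was measured in 2 arrays each of the ES line V6.5 grown on feeders, of female MEFs and of iPS cells. H3K4me3 and H3K27me3, trimethylation of lysines on histone H3, were each measured by immunoprecipitation (IP) and promoter arrays in the ES lines E14 and V6.5, in the fibroblasts MEF1 (labelled male) and MEF2 (labelled female) and in 1 iPS line. A complete set was 2 arrays with different promoters, so each line gave 1 value per promoter and mark. No genotype, passage or age is labelled, nor is the way in which the iPS cells were made, so they stand for 1 line of unstated origin. The labels call the second RNA array of each kind a duplicate and name no separate culture, so the p-values for RNA measure only the spread between arrays. Fewer cells that express a gene and less RNA per cell cannot be told apart in such bulk samples.

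Dppa2 and Dppa4 are neighbouring genes whose nuclear proteins carry a SAP DNA-binding domain, act together at CpG-rich promoters and can switch on genes of the cleavage embryo in ES cells. Dppa3 (also Stella or PGC7) is a maternal protein of oocyte, zygote and germ cells that shields methylated DNA from oxidation and restrains the methylation factor Uhrf1. Dppa5a (also Esg1) is a small RNA-binding protein with a KH domain, related to the oocyte proteins Ooep and Khdc3. H3K4me3 usually marks promoters that are active or ready to be, and H3K27me3 is laid down by Polycomb complexes at repressed promoters; many developmental genes of ES cells carry both.

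Single promoter-labelled probes are given first, in lower case with each CpG in capitals. The strand is not given. The promoter values further below are means over several probes. The first 4 are those with the highest mean H3K4me3 of both ES lines among the promoter-labelled probes of their place, and the fifth is the promoter-labelled Dppa3 probe with the highest H3K27me3 in V6.5. For the promoter array, the genome build is not given here.
Dppa4, chr16:48043364-48043419: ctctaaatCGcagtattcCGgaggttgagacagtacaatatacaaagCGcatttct
Dppa5 place B, chr9:78444271-78444326: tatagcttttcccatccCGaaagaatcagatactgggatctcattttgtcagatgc
Dppa5 place A, chr9:78378682-78378731: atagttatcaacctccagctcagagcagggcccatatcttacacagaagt
Dppa3, chr6:122662760-122662819: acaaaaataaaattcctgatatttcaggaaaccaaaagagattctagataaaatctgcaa
Dppa3, chr6:122659830-122659887: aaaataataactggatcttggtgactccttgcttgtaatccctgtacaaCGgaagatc
The Dppa4 probe held 3 CpGs, the Dppa5 place B probe 1 and the Dppa5 place A and first Dppa3 probes 0. On the log2 scale of IP over input, the Dppa4 probe read 2.24 in E14, 3.14 in V6.5 and 2.62 in iPS cells for H3K4me3, against -0.60 in MEF1 and -0.52 in MEF2. The place B probe read 2.23, 3.08 and 2.47 in the same 3 lines, against -0.46 and -0.44 in the fibroblasts. At these probes pluripotent lines and fibroblasts lay more than 2 log2 units apart. As the probes were picked for high ES values, that gap is partly set by the choice and does not describe their whole places. The place A probe, picked in the same way, lay between -0.63 and -0.42 in all 5 lines.

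The markers of the labelled cell types were present. The summed level of 7 ES and iPS markers, relative to the array's 75th percentile, was 178 to 192 on ES and iPS arrays and 0.257 and 1.83 on the MEF arrays, where 0 and 3 of the 7 were well above background. The summed level of 8 fibroblast markers was 964 and 472 on MEF arrays, 60.3 and 76.7 on ES arrays and 19.7 and 17.2 on iPS arrays, and 5 macrophage and blood markers summed to 107 and 59.3 on MEF arrays against at most 3.76 on the others. The second MEF array stood apart: 86.6% of its probes were well above background against 46.0% to 58.4% on the 4 others with such flags. The 2 MEF arrays correlated at 0.777 across 41174 probes, dim ones included (ES 0.978, iPS 0.992). Probes are not independent. The scanner files of the ES and MEF arrays hold each other's values by comparison with the deposited value table. The table was followed, under which the markers above stand in the labelled cell types, and every RNA direction between ES cells, iPS cells and MEFs below rests on that choice.

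The RNA of all 4 Dppa genes was high in ES and iPS cells and low in MEFs. Levels are log2 signals relative to the 75th percentile of the array, and a gene was called at an adjusted p under 0.05 and a difference of at least 2-fold in limma. Levels of different genes come from different probes and are not compared. In MEFs, all 4 were called lower than in ES cells, where 16.8% of all genes tested were. In iPS cells, all 4 were called higher than in MEFs, where 16.9% of all genes were. A probe was tested only if it was well above background on both arrays of a cell type. Dppa3 and Dppa4 met this only in ES and iPS cells, so their calls against MEFs are partly set by that filter. Dppa2 and Dppa5a met it in MEFs too. The median difference of the 4 genes was -7.57 for MEF minus ES and 7.20 for iPS minus MEF, against -0.09 and 0.07 over all genes. These comparisons share the MEF arrays, so they are not independent of each other.

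Dppa4 (expression probe at chr16:48053770-48053829 in the array's mm7 annotation) read 4.42 and 3.86 on the ES arrays, -5.43 and -1.80 on the MEF arrays and 3.56 and 3.43 on the iPS arrays. Both iPS values lay below both ES values, and both groups lay far above the MEF arrays. Its RNA was 215-fold lower in MEFs than in ES cells (-7.75, SE 1.07, adjusted p 0.00261) and 138-fold higher in iPS cells than in the fibroblasts (7.10, adjusted p 0.00319). The first MEF array was not well above background for Dppa4, so only 1 of the 2 MEF arrays measured it, and with the dim array held at its lowest level well above background the folds over MEFs were at least 101 for ES and 64.4 for iPS cells. Within the first slide the MEF minus ES difference was -9.84 and within the second -5.65.

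Dppa3 (chr6:122666937-122666996) read 3.42 and 3.65 in ES cells, -5.20 and -2.51 in MEFs and 3.53 and 3.35 in iPS cells. The ES and iPS values overlapped and no MEF value came near them. The gene was 168-fold lower in MEFs than in ES cells (-7.40, SE 0.83, adjusted p 0.00137) and 157-fold higher in iPS cells than in the fibroblasts (7.30, adjusted p 0.00110). Here too the first MEF array was not well above background: held in the same way, the folds over MEFs were at least 85.1 for ES and 79.5 for iPS cells, and the MEF minus ES difference was -8.63 within the first slide and -6.16 within the second.

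Dppa5a had 2 expression probes whose annotation differs. The probe that stands for the gene lies at chr9:78441271-78441330 and read 6.86 and 7.76 in ES cells, -1.04 and -3.16 in MEFs and 6.58 and 6.62 in iPS cells. It was flagged saturated on both ES arrays and the first iPS array, at raw signals of 74574 to 79378. The second iPS array took its flags from the first and read 77780. The folds of this probe are therefore given as lower bounds. Dppa5a was at least 680-fold lower in MEFs than in ES cells (-9.41, SE 0.73, adjusted p 0.000710) and at least 416-fold higher in iPS cells than in the fibroblasts (8.70, adjusted p 0.000484). The other probe, annotated at chr5:28571256-28571315, read 6.85 and 6.37 in ES cells, -4.91 and -1.84 in MEFs and 6.53 and 6.57 in iPS cells. It was flagged saturated on the first iPS array, whose flags the second took, and was not well above background on the first MEF array. No difference is therefore given for it. Within slides, the tested probe gave MEF minus ES differences of -7.89 and -10.93. Both probes put the gene on the same side in every group. Near-identical copies of Dppa5a may share its signal, which these probes cannot separate.

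Dppa2 (chr16:48078749-48078808, 24979 bp from the Dppa4 probe) showed the smallest difference. It read 1.81 and 1.87 in ES cells, -2.20 and 0.38 in MEFs and 2.07 and 1.96 in iPS cells. All 4 pluripotent values lay above both MEF values, but the MEF minus ES difference was -4.01 within the first slide and only -1.50 within the second. The gene was 6.75-fold lower in MEFs than in ES cells (-2.75, SE 0.80, adjusted p 0.0382) and 7.61-fold higher in iPS cells than in the fibroblasts (2.93, adjusted p 0.0296). The call against ES cells was lost without ES array 1 (adjusted p 0.173) or ES array 2 (0.171), with differences of -2.79 and -2.72. Without the second MEF array the difference was -4.04 (adjusted p 0.000616) and without the first -1.47 (0.00893). Against iPS cells the call was lost without either ES array (adjusted p 0.0797 in each case), without iPS array 1 (0.0699) or without iPS array 2 (0.0615).

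**Figure D1:**
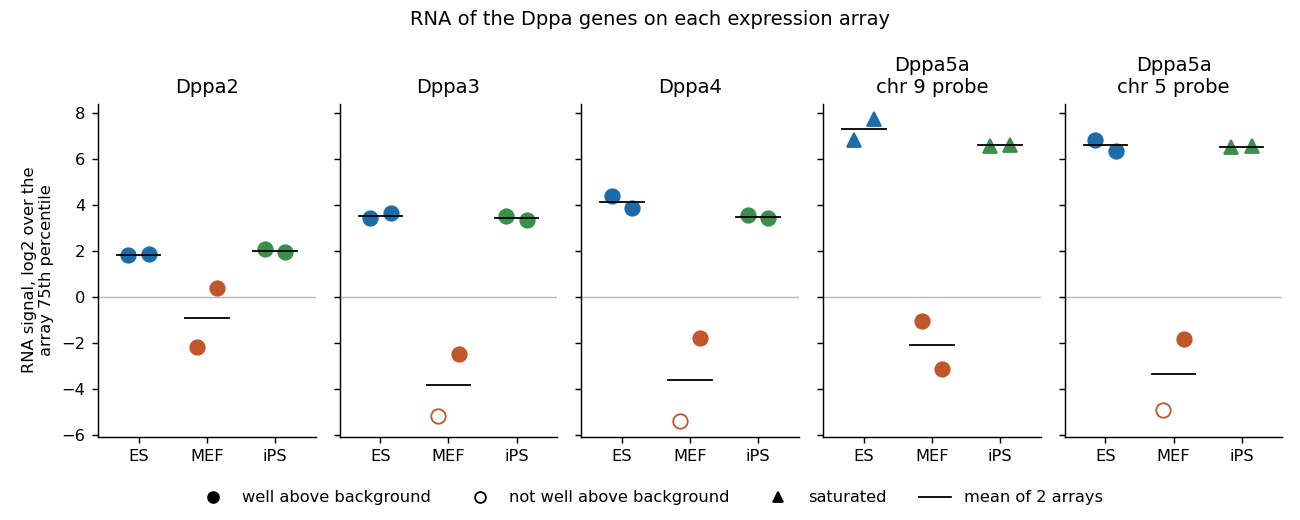
RNA signal (log2 over the array 75th percentile) of each Dppa probe on the 2 ES, 2 MEF and 2 iPS arrays. Open points were not well above background and triangles were saturated, by flags that the second iPS array took from the first. Lines are the mean of both arrays. Every ES and iPS point lies above both MEF points, and the MEF arrays lie apart from each other, at -5.43 and -1.80 for Dppa4.

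Between iPS and ES cells none of the 4 Dppa genes was called, where 29 of all genes (0.167%) were and where 0 of the 4 reached an unadjusted p under 0.05 against 2646 of all genes. The differences, iPS minus ES, were 0.17 for Dppa2 (95% interval -1.72 to 2.07), -0.10 for Dppa3 (-2.07 to 1.87), -0.64 for Dppa4 (-3.18 to 1.89) and -0.71 for Dppa5a (-2.45 to 1.04). The fit shares 1 spread per gene over all 6 arrays, the MEF arrays included, and these intervals do not exclude differences of over 2-fold in either direction. Dppa5a was saturated on both sides, so its difference has no fold, and its interval and p-values do not measure a change. With the ES and iPS arrays fitted alone, limma's adjusted p was 0.627 for Dppa2, 0.801 for Dppa3, 0.181 for Dppa4 and 0.221 for Dppa5a, so 0 of the 4 were called where 15.6% of all genes were. The median difference of the 4 genes, the saturated Dppa5a included, was -0.37, against -0.05 over all genes.

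The promoter value of a gene is the mean log2 ratio of IP over input over the probes within 1000 bp of its array start, with each array's median at 0, and a promoter was called at an adjusted p under 0.05 in limma. The iPS cells gave 1 value per promoter, so in every chromatin test of iPS cells the spread comes wholly from the ES and MEF lines and the iPS line is assumed to vary like them. Both Dppa genes with such a value were called lower for H3K4me3 in MEFs than in ES cells, where 3.17% of promoters were. Dppa4 was called higher in iPS cells than in MEFs and Dppa3 was not, where 0.542% of promoters were called higher. Neither was called between iPS and ES cells, where 0% of promoters were and 213 of all promoters, but neither Dppa gene, had an unadjusted p under 0.05.

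At Dppa4 (array start chr16:48043682, plus strand, 9 probes in the window), H3K4me3 was 2.07 in E14, 2.65 in V6.5, -0.28 in MEF1, -0.61 in MEF2 and 2.59 in iPS cells. The pluripotent lines were all high and both fibroblast lines low, with a gap of 2.34 between the lower ES line and the higher MEF line; both ES lines were at least 1 log2 unit above both MEF lines at 1.28% of promoters. The MEF minus ES difference was -2.80 (SE 0.25, adjusted p 0.000346) and the iPS minus MEF difference 3.03 (SE 0.31, adjusted p 0.00534). With normexp and loess, under which 0 of all promoters were called, these were -2.09 (adjusted p 0.217) and 0.76 (adjusted p 0.237). iPS cells differed from ES cells by 0.23 (95% interval -0.46 to 0.93). In the pluripotent lines Dppa4 ranked high, with 92.5% to 96.0% of promoters below it, and in MEF1 and MEF2 with 21.1% and 16.8% below. Along the locus, 12 to 13 of its 24 probes were at 1 or more in each pluripotent line and 0 in either MEF line. The highest lay inside the gene at 316 bp from the start, at 3.17, 4.23, -0.27, -0.61 and 4.04 in the same order of lines.

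At Dppa3 (array start chr6:122663237, plus strand, 5 probes in the window), H3K4me3 was 0.65 in E14, 1.32 in V6.5, -0.02 in MEF1, -0.40 in MEF2 and 0.48 in iPS cells. The fibroblast lines were lowest again, but the gap to the lower ES line was only 0.66 and the level was modest, with 39.2% of promoters below it in E14, 54.8% in V6.5 and 34.5% in iPS cells. The MEF minus ES difference was -1.19 (SE 0.27, adjusted p 0.0307). This call was lost without V6.5 (-0.86, adjusted p 0.0938), without MEF1 (-1.38, 0.0759), without MEF2 (-1.002, 0.307), with the median over probes (-1.27, 0.0826) and with normexp and loess (-0.27, 0.427). The iPS minus MEF difference of 0.68 was not called (95% interval -0.05 to 1.42, adjusted p 0.449), nor was the iPS minus ES difference of -0.51 (-1.24 to 0.22). The iPS value was pulled down by 1 probe, the first of the Dppa3 sequences printed above, at -447.5 bp from the start: it read 1.28 in E14, 1.32 in V6.5 and -1.61 in iPS cells. Without it the mean was 1.00 in iPS cells, 0.49 in E14, 1.32 in V6.5, 0.01 in MEF1 and -0.44 in MEF2, so the iPS cells then lay between both ES lines. This step was chosen after the values were seen and was not tested. The Dppa3 probe with the most H3K4me3 inside the gene, 1361.5 bp from the start, read 1.79 in E14, 2.50 in V6.5, 1.90 in MEF1, 0.20 in MEF2 and 2.37 in iPS cells. There MEF1 was as high as E14, so the separation of the window does not hold along the whole gene.

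Dppa5 probes fell into 3 places on chromosome 9. Place B held 11 promoter-labelled probes (78442253 to 78446381) and 5 downstream-labelled ones. Place A, 63522 bp away, held 5 promoter-labelled probes (78376345 to 78378731), and place C held 2 (78452002 to 78452212), too few to enter the fit. As no single start could be given, the mean over the promoter-labelled probes of each place was used, a definition chosen after the files were seen.

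At place B, H3K4me3 was 1.11 in E14, 1.34 in V6.5, -0.46 in MEF1, -0.56 in MEF2 and 1.21 in iPS cells. The pattern was that of Dppa4, with all 3 pluripotent lines above both fibroblast lines by at least 1.57, a separation of ES from MEF lines of at least 1 log2 unit that 0.385% of places showed. Under this definition place B was called lower in MEFs than in ES cells (-1.74, SE 0.14, adjusted p 0.000571), as were Dppa3 (-0.57, adjusted p 0.0346) and Dppa4 (-0.89, adjusted p 0.00996), where 4.46% of places were. Place B was called above its MEF level in iPS cells (1.72, SE 0.18, adjusted p 0.00836), as was Dppa4 (1.00, adjusted p 0.0362), where 0.892% of places were. It differed by -0.01 between iPS and ES cells (95% interval -0.41 to 0.38). Of the 16 probes of the place, 11 were at 1 or more in each pluripotent line and 0 in either MEF line. Place A stayed low in all 5 lines, at -0.84 to -0.61, with a MEF minus ES difference of -0.14 (adjusted p 0.548). Its single inside-labelled probe read 1.12 in E14, 2.16 in V6.5, -0.13 in MEF1, -0.14 in MEF2 and 2.05 in iPS cells. Both probes of place C, 2125 bp from the array start of Ooep, followed the same split, averaging 1.44, 1.11, -0.25, -0.49 and 2.10. Whether the marks of place C belong to Dppa5 or to Ooep cannot be told apart here.

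**Figure D2:**
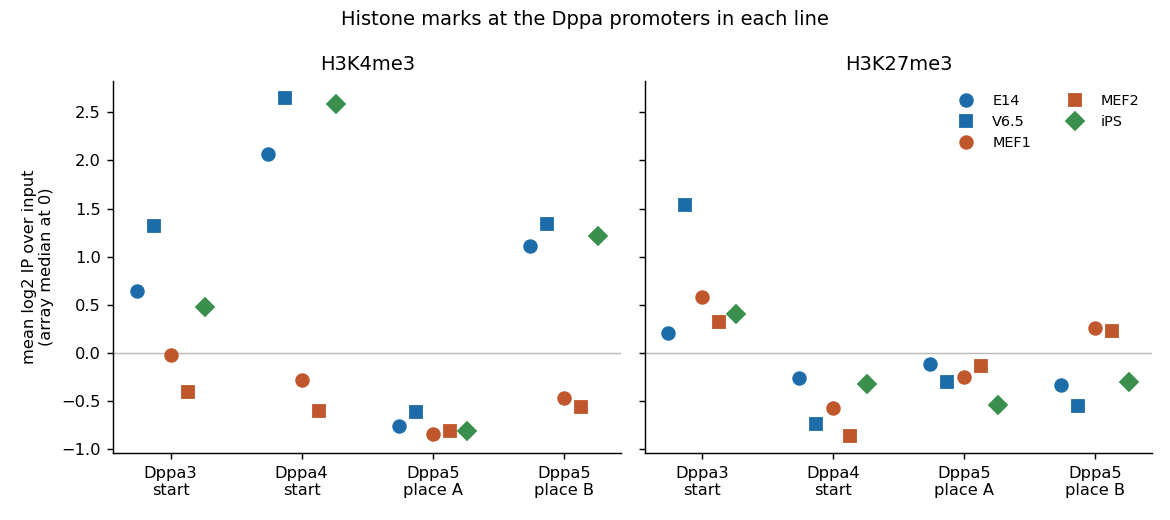
Mean log2 IP over input (array median at 0) of H3K4me3 and H3K27me3 for each of the 5 lines at the Dppa3 and Dppa4 starts and at Dppa5 places A and B; each point is 1 line. H3K4me3 separates the pluripotent lines from MEFs at Dppa4 (2.07 and above against -0.28 and below) and place B, while place A is low in every line and V6.5 stands alone at 1.53 for H3K27me3 at Dppa3.

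Each ES and MEF line was scanned on a day of its own, so line and scan day cannot be told apart. The iPS arrays shared days with other lines: on the day of the iPS array that carries Dppa4 and Dppa5, iPS cells were 0.52 above E14 at Dppa4 and 0.10 above it at place B for H3K4me3. On the day shared with MEF2, iPS cells were 0.88 above MEF2 at Dppa3.

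H3K27me3 was low at Dppa4 in all 5 lines, high at Dppa3 in V6.5 and slightly higher in MEFs than in the other lines at Dppa5 place B. Neither Dppa3 nor Dppa4 was called between MEFs and ES cells, where 12.3% of promoters were. Neither was called between iPS cells and MEFs or between iPS and ES cells, where limma called 0% of promoters in each comparison; 3045 and 297 promoters had an unadjusted p under 0.05, and neither Dppa3 nor Dppa4 did. Neither gene was among the 1.77% of promoters at which the ES pair and the MEF pair were separated by 1 log2 unit or more.

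Dppa4 carried little of the mark in any line: -0.26 in E14, -0.73 in V6.5, -0.57 in MEF1, -0.87 in MEF2 and -0.32 in iPS cells. Of its 24 probes, 0 were at 1 or more in any of the 5 lines, so the low H3K4me3 of the MEF lines stood beside low H3K27me3. The MEF minus ES difference was -0.22 (adjusted p 0.544) and the iPS minus MEF difference 0.40 (adjusted p 0.452).

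Dppa3 read 0.21 in E14, 1.53 in V6.5, 0.58 in MEF1, 0.32 in MEF2 and 0.40 in iPS cells. V6.5 stood alone, with 95.4% of promoters below it against 69.4% in E14. In V6.5, 17 of the 20 Dppa3 probes were at 1 or more, against 4 in E14, 4 in MEF1, 2 in MEF2 and 6 in iPS cells. Of all promoter values, 12.7% were at 1 or more in V6.5 and 2.67% in E14. In MEF1, MEF2 and iPS cells 6.65%, 11.1% and 8.75% were. The second Dppa3 sequence above, at -3378.5 bp from the start, read 2.58 in V6.5 and 0.86 in E14, 1.34 in MEF1, 1.05 in MEF2 and 1.13 in iPS cells. V6.5 was thus the line in which both marks were above 1 at this promoter, with H3K4me3 at 1.32. The MEF minus ES difference was -0.42 (95% interval -1.53 to 0.69, adjusted p 0.586), and it turned on the ES line used: without E14 it was -1.08 (adjusted p 0.0303), and without V6.5 it was 0.24 (0.400). The spread of log2 ratios (median absolute deviation) on the array with Dppa3 was 0.432 for E14, the lowest, against 0.618 to 0.836 for the other lines. With all arrays scaled to one spread, the MEF minus ES difference at Dppa3 was -0.52 (adjusted p 0.281). V6.5 is also the line of the ES expression arrays, on which Dppa3 RNA was high. iPS cells differed from E14, scanned on the same day, by 0.19.

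At Dppa5 place B, H3K27me3 was -0.33 in E14, -0.55 in V6.5, 0.26 in MEF1, 0.23 in MEF2 and -0.31 in iPS cells. The fibroblast lines were higher than all 3 pluripotent lines, by a small amount. The MEF minus ES difference was called (0.68, SE 0.14, adjusted p 0.0157), where 13.3% of places were called higher, and the iPS minus MEF difference of -0.55 was not (unadjusted p 0.0171, adjusted p 0.0969). None of its 16 probes was at 1 or more in any line. The 2 probes of place C averaged 1.07 in MEF1 and 1.27 in MEF2 against -0.87 to -0.28 in the pluripotent lines, and place A lay between -0.53 and -0.11 in all lines.

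**Figure D3:**
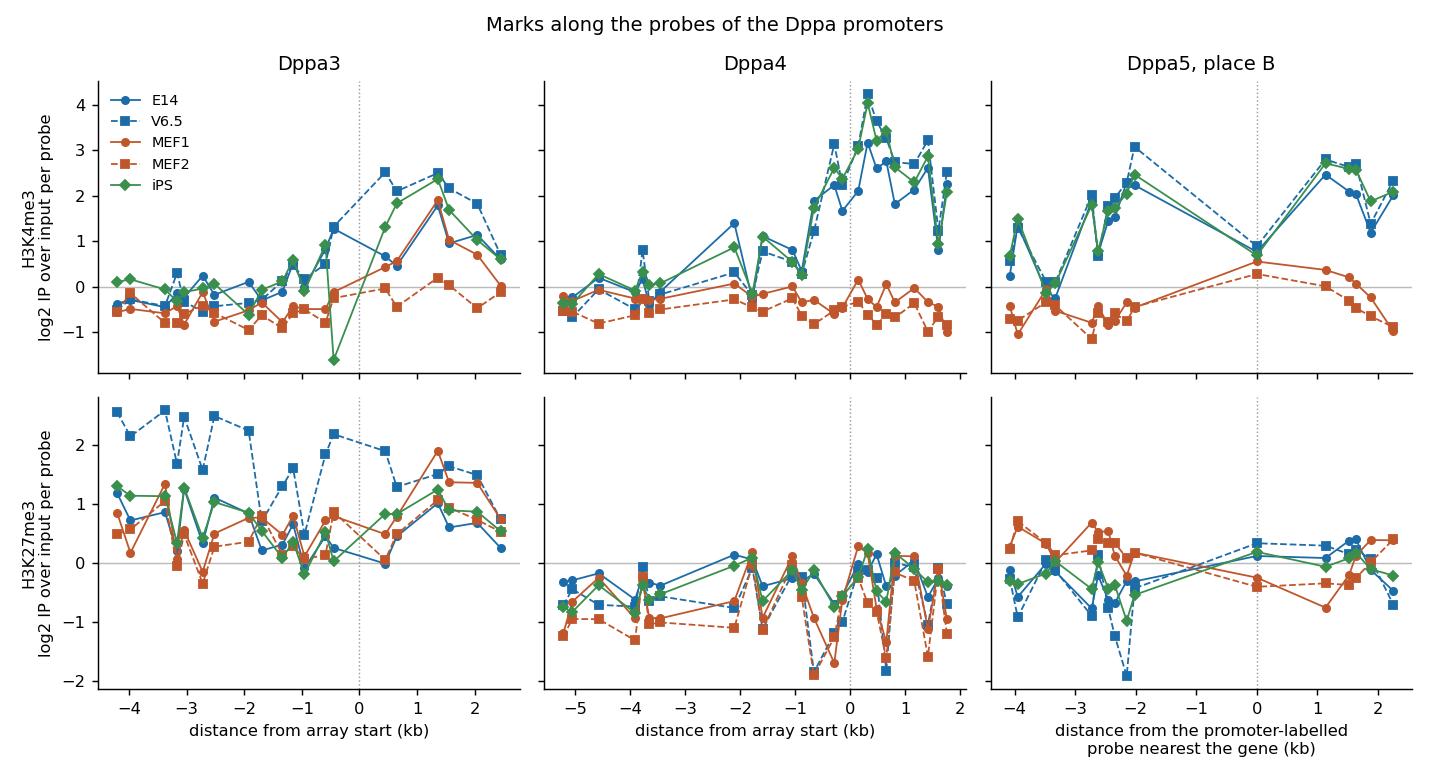
Log2 IP over input of every probe at Dppa3, Dppa4 and Dppa5 place B against distance in kb from the array start (for place B, from the promoter-labelled probe nearest the gene), for H3K4me3 (top) and H3K27me3 (bottom), 1 line per cell line. The Dppa4 H3K4me3 peak of 3.17 to 4.23 in pluripotent lines is missing in both MEF lines, and H3K27me3 across Dppa3 is highest in V6.5.

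The promoters of Dppa3 and Dppa4 were poor in CpG, by the sequences of their probes. Probes in the windows held 1.49 CpGs per 100 bases at Dppa3 and 0.95 at Dppa4, against a median of 2.29 over all promoters; 33.8% and 21.6% of promoters held less. Among the 3269 promoters with no more CpG than Dppa4, 5.75% were at 1 or more for H3K4me3 in both ES lines, against 46.8% of all promoters. Among the 5109 with no more than Dppa3, 12.6% were. Dppa4 belonged to that small share, and Dppa3 did not, as it was below 1 in E14.

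The neighbours of the Dppa promoters on the arrays were Gdf3 near Dppa3 and Ooep, 4930542C12Rik, Cgas and Mto1 near place B. Gdf3, a TGF-beta family ligand of pluripotent cells, starts 16302 bp from Dppa3. Its H3K4me3 was 1.69, 2.27, -0.28, -0.60 and 1.93 in E14, V6.5, MEF1, MEF2 and iPS cells, and its MEF minus ES difference was -2.42 (adjusted p 0.000652), with H3K27me3 higher in MEFs by 0.90 (adjusted p 0.0261) and RNA different by -5.10 (adjusted p 0.0156, 1 of 2 MEF arrays well above background). Dppa3 itself had a smaller H3K4me3 difference and no called H3K27me3 difference; the difference between these genes was not tested. Ooep, a maternal KH-domain protein 12059 bp from the nearest reference point of place B, read 1.69, 1.99, 0.40, 0.01 and 2.13 for H3K4me3 (MEF minus ES -1.63, adjusted p 0.00323) and -0.21, -0.27, 1.13, 1.41 and -0.02 for H3K27me3 (1.51, adjusted p 0.0261). Its RNA differed by -5.52 in MEFs against ES cells (adjusted p 0.0145). The more distant 4930542C12Rik (29736 bp) was lower in MEFs for H3K4me3 (-0.93, adjusted p 0.0452), and Cgas and Mto1 (76714 and 81699 bp) were not called between MEFs and ES cells. No other array start lay within 100 kb of Dppa4.

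The genes most like each Dppa gene in RNA were found over the 6 expression arrays, after centring every gene on its own mean, by the root mean square difference. For Dppa4 they were Gldc (0.28), the pluripotency regulator Pou5f1 (0.31) and Dppa3 (0.42), for Dppa3 Gldc (0.30), the transcription factor Tfcp2l1 (0.34) and AK014119 (0.34), and for Dppa5a Sox2 (0.46), Nanog (0.66) and Pou3f1 (0.69), 3 transcription factors. The Dppa5a probe was saturated, or taken as saturated, on 4 of these arrays. Sox2, Nanog and Pou3f1 were not well above background on the MEF arrays, so that order has no measured basis. Dppa3, Dppa4 and the genes near them were measured on 1 of the 2 MEF arrays. For Dppa2 they were 2610318N02Rik (0.12), ENSMUST00000036576 (0.12) and Acbd7 (0.15), each measured on 1 of the 2 MEF arrays, while Dppa2 was measured on both. Over the 5 lines, the H3K4me3 pattern nearest to Dppa4 was that of Pou5f1 (0.08), then Zfp42 (0.16) and Rnf125 (0.17). Pou5f1 read 1.93, 2.47, -0.44, -0.56 and 2.42 for H3K4me3, close to Dppa4 in each line. For H3K27me3 Pou5f1 was higher in MEFs by 1.12 (adjusted p 0.0261) and Dppa4 was -0.22 apart; the difference between these genes was not tested. The H3K4me3 pattern of Dppa3 was nearest to Large2 (0.07), Padi2 (0.09) and Ell3 (0.09), and its H3K27me3 pattern to Helt (0.15), Dpp4 (0.18) and Pla2g4e (0.19).

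Dppa2 to Dppa5a were all part of a published panel of 24 candidate reprogramming factors, of which 20 others were tested here for RNA. In MEFs 13 of these were lower than in ES cells (16.8% of all genes) and 0 higher, with a median difference of -4.42 against -0.09 over all genes. Among those with the largest fitted differences, the transcription factors Sox2 and Nanog and the F-box protein Fbxo15 were not well above background on either MEF array and were at least 191-fold, 128-fold and 354-fold lower in MEFs. Such bounds set the dim arrays at the lowest level well above background. The zinc finger protein Zfp42 (-8.72) was measured on 1 of the 2 MEF arrays. Genes not well above background on a MEF array entered the test only through ES or iPS cells. Counts against MEFs are thus partly set by that filter, and the panel was chosen with earlier results of these data known. In iPS cells 13 were higher than in MEFs, where 16.9% of all genes were, and 2 lower: the proto-oncogene Myc (-2.18) and the cytokine signal transducer Stat3 (-2.22). Dppa3, Dppa4 and Dppa5a had fitted differences beyond the median of this panel and Dppa2 (-2.75) had not. For H3K4me3, 10 of 17 were lower in MEFs than in ES cells, where 3.17% of promoters were. For H3K27me3 7 of 17 were higher and 1 lower, where 4.6% of promoters were higher and 7.66% lower.

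Among 4 tested relatives of Dppa5a in the maternal KH-domain complex, Khdc3 (-6.56) and Ooep (-5.52) were lower in MEFs and higher in iPS cells than in MEFs. Each was measured on 1 of 2 MEF arrays. The complex members Tle6 (-0.16) and Padi6 were not called between MEFs and ES cells. Padi6 was well above background on neither ES array and on 1 of 2 MEF arrays, so its difference was not measured. Of 10 enzymes and partners of DNA methylation connected with Dppa3, 9 were lower in MEFs than in ES cells, with a median of -2.89; over all genes 16.8% were lower. They were led by the cofactor Dnmt3l (-6.75), the methyltransferase Dnmt3b (-6.61), the dioxygenase Tet1 (-4.71) and Uhrf1 (-4.24), which Dppa3 can restrain. Dnmt3b was measured on 1 of the 2 MEF arrays, and Dnmt3l, Tet1 and Uhrf1 on both. Tet3 (0.61) was not called. In iPS cells 5 of the 10 were called higher than in MEFs, where 16.9% of all genes were. Of 14 germ line genes, 7 were lower in MEFs and 9 higher in iPS cells than in MEFs, against 16.8% and 16.9% of all genes. As in the panel, genes dim on a MEF array entered the test only through ES or iPS cells, which partly sets these counts. Tex19.1 and Taf7l were not well above background on either MEF array and lay below their ES levels by factors of at least 303 and 6.35, while Rhox5 (-5.74) was measured on both and Tfap2c (-6.38) on 1 of the 2. Without the second MEF array 14 of the panel and 12 germ line genes were lower in MEFs, and without the first 17 and 8; genes called in either direction then rose from 5616 to 8234 and 9779. Between iPS and ES cells 0 genes were called in each of these 4 lists in limma's fit of all 6 arrays, where 1 of the 20, 0 of the 4, 6 of the 10 and 3 of the 14 had an unadjusted p under 0.05. With the ES and iPS arrays fitted alone, which called 15.6% of all genes, 3 of the 20, 2 of the 4, 6 of the 10 and 5 of the 14 were called. Padi6, Fthl17a of the panel and Nanos3 of the germ line list were not well above background on either ES array. Stk31 of the germ line list was so on only 1 of the 2. They entered the test only through the iPS arrays, so calls of these genes add nothing to the counts. Of the 6 DNA methylation genes, Tet2 (-2.78), Zfp57 (-2.47), Tet1 (-1.31), Uhrf1 (-1.30) and Dnmt3a (-1.11) were lower in iPS cells and Tet3 (1.12) was higher.

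Of the genes of the 2-cell-like state that Dppa2 and Dppa4 can activate through Dux, 6 of 11 were tested: Zscan4c, Zfp352, Tcstv1, Tcstv3, Sp110 and Pramel7. Zscan4c read -0.46 and -0.76 in ES cells, -5.06 and -1.44 in MEFs and 3.07 and 3.15 in iPS cells. Tcstv1 read 0.52 and 1.28, -5.19 and 0.69, and 4.21 and 4.33 in the same order. On both iPS arrays all 6 genes lay at least 2 log2 units above both ES arrays, as did 1.65% of all genes, although Dppa2 and Dppa4 themselves did not. The iPS minus ES differences were 3.09 to 3.72 for the other 5 and 2.93 for Pramel7. Pramel7 was not well above background on either ES array, so its distance from ES cells was not measured. It entered the test only because it was well above background on the iPS arrays, so it adds nothing to the counts of these 6 genes. Limma's fit of all 6 arrays called 0 of them in this comparison (adjusted p 0.0588 to 0.392, 5 with an unadjusted p under 0.05), and with the ES and iPS arrays fitted alone it called all 6 (adjusted p 0.00529 to 0.0224), where 7.43% of all genes were called higher. Against MEFs, 4 of the 6 were called higher in iPS cells, where 16.9% of all genes were. All but Sp110 were well above background on only 1 of the 2 MEF arrays, so the filter partly sets this count. Between MEFs and ES cells 0 of the 6 were called, where 5616 of 17344 genes were. There 3 of the 6 had an unadjusted p under 0.05 in limma, as had 7677 of all genes. Without the second MEF array, 4 were lower in MEFs and 1 higher, and without the first 0 were lower and 2 higher, so this list gave no stable direction between MEFs and ES cells. These genes belong to families with near-identical copies, so a probe may read several of them.

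**Figure D4:**
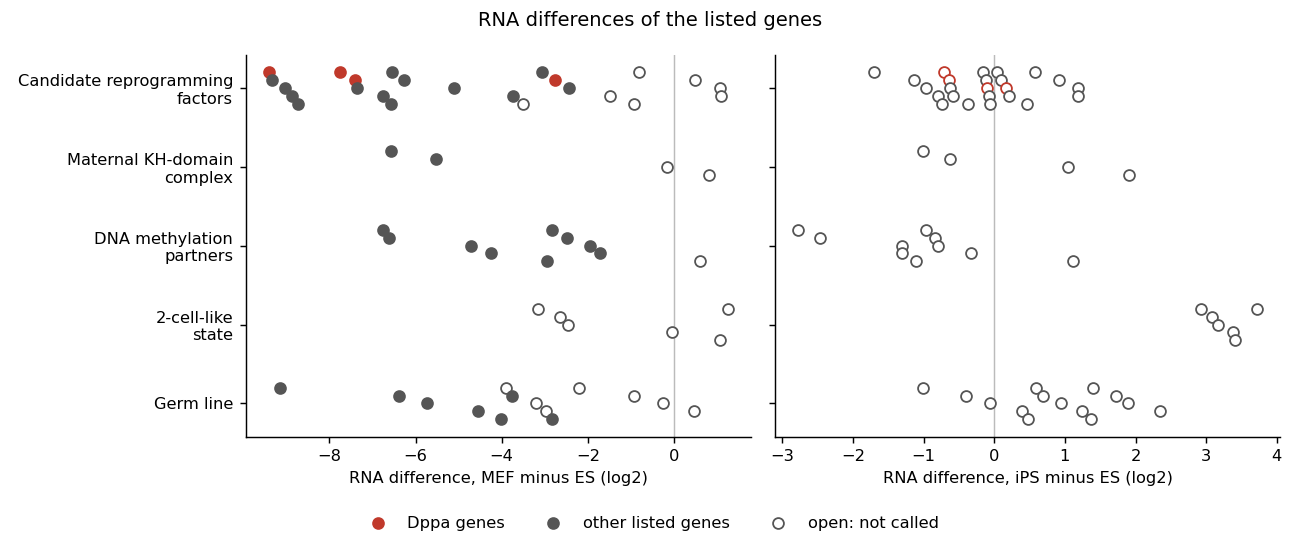
RNA differences (log2) of each listed gene for MEF minus ES and for iPS minus ES, 1 row of points per list, fitted values also where an array was not well above background; red points are the Dppa genes and open points were not called. Most listed genes lie left of 0 in MEFs, the Dppa genes from -9.41 to -2.75, and the genes of the 2-cell-like state lie right of 0 in iPS cells, at 2.93 to 3.72.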

How the data were processed

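RNA was read on 6 1-colour arrays and chromatin on 20 2-colour promoter arrays, IP in Cy5 and input in Cy3; a label protocol of some fibroblast H3K27me3 arrays names Cy3 for the IP, and the channel labels were followed. The authors deposited scanner intensity and flags from Agilent Feature Extraction (per the file headers, background-subtracted and detrended), log10 ratios of red over green, and a value table. Its ES and MEF expression columns equal the scanner files filed under the other type, and the table was followed. One iPS scanner file stops after 28349 of 45018 spots, equals no value column, and correlates with the ES columns at 0.982 and 0.98 and with the iPS columns at 0.974 and 0.972. What it holds is not known. The second iPS value column, which correlates with the first at 0.992, was used with the flags of the first iPS array.

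Expression signals were put on a log2 scale relative to each array's 75th percentile; a gene takes 1 probe. Promoter ratios were centred on the array median. Genes and promoters were fitted whole in limma 3.58.1 (R 4.3.3) with Benjamini-Hochberg adjustment, ES, MEF and iPS together; the number of arrays and lines limits precision. The scripts were tested on simulated data. Symbols were updated through RefSeq where they matched. Promoters needed 3 probes. The genes and lists were chosen with earlier results of these data known. Named beside the Dppa genes are genes within 100 kb (1 is not reported here), the 3 nearest in pattern, and of each list at most 4 called genes with the largest MEF against ES differences, plus those not called where values matter; Zscan4c, Tcstv1, Myc and Stat3, singled out after their values were seen, fall outside this rule.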

Additional observations from a re-analysis of the deposited data

How the results depend on the processing

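Over the 274 single-gene comparisons run under another setting, 224 kept direction and call, 19 lost the call, 1 gained it and 30 changed sign; the cause was not tested unless stated. Using the expression scanner files as filed exchanges ES and MEF by construction: the MEF minus ES differences of Dppa2, Dppa3, Dppa4 and Dppa5a became 2.76, 7.40, 7.75 and 9.42, 0 of the 4, and 0 of all genes, were called between iPS cells and MEFs (Dppa3 -0.013, Dppa4 -0.57, Dppa5a -0.73) and, where 3701 of 17344 genes were called, 3 between iPS and ES cells (Dppa3 7.39, Dppa4 7.19, Dppa5a 8.69). The small iPS minus ES RNA differences changed sign for Dppa3 with normexp (0.083) and quantile normalization (0.073) and over leave-one-out fits (-0.21 to 0.016), and for Dppa5a with quantile normalization (0.018). Dppa2 also lost its call with quantile normalization in MEF minus ES (-2.32, adjusted p 0.108) and iPS minus MEF (2.54, 0.0812), and with no filter on dim probes (adjusted p 0.110 and 0.0659, differences unchanged).

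For H3K4me3, 1 of the Dppa promoters was called lower in MEFs with a 500 bp window (Dppa3 then has under 3 probes) or the median over probes, 0 with normexp and loess, where 0 of all 15119 promoters were called and Dppa4 was -2.09 (adjusted p 0.217), and 1 to 2 when a line was left out. Between iPS cells and MEFs, 0 were called, as were 0 of all promoters, with the median (Dppa4 3.11, adjusted p 0.105) or with normexp and loess (Dppa4 0.76, 0.237), and 2 by place. The iPS minus ES difference under normexp and loess was 0.16 for Dppa3 and -1.34 for Dppa4, and for Dppa4 -0.058 without E14, 0.52 without V6.5 and 0.23 without a MEF line. For H3K27me3, MEF minus ES was 0.16 for Dppa3 with normexp and loess and 0.044 for Dppa4 with arrays scaled to one spread. With a line left out it spanned -1.08 to 0.24 for Dppa3 and, for Dppa4, was 0.016 without E14, -0.37 without MEF1 and -0.46 without V6.5, with 0 to 1 called, and 1 entry was called by place. iPS minus MEF at Dppa3 was 0.090 with the median, 0.053 scaled, 0.17 by place and -0.18 to 0.081 with a line left out. iPS minus ES at Dppa4 was -0.23 with the median, -0.061 from the deposited log ratios and -0.056 to 0.42 with a line left out; at Dppa3 it was 0.022 with normexp and loess and -1.13 to 0.19 with a line left out.

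With the slide as a replicate block, 4, 4 and 0 Dppa genes were called in the 3 RNA comparisons, where 5579, 5685 and 216 of 17344 genes were (5616, 5858 and 29 without the block), and no call of theirs changed. Same-numbered arrays shared a slide. Their deviations correlated at -0.0008 (ES and MEF), -0.11 (ES and iPS) and 0.03 (MEF and iPS). With 2 arrays a group these values cannot settle whether the arrays are paired.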
